A study of Homo sapiens with 4 samples.

Results

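The 10 genes described here encode the classical MHC class II molecules, the proteins that load them with peptide, and their master regulator. They were chosen by symbol in the deposited gene table, which lists all 10 among 41507 genes: *HLA-DRA*, *HLA-DRB1*, *HLA-DPA1*, *HLA-DPB1*, *HLA-DQA1*, *HLA-DQB1*, *HLA-DMA*, *HLA-DMB*, *CD74* and *CIITA*. The values come from SU-DHL-5 and Toledo, established cell lines of diffuse large B-cell lymphoma (DLBCL). Cells of each line received either the vehicle DMSO or 1 µM of JQ1, an inhibitor of the BET family of acetyl-histone readers, for 6 h according to the labels. No normal B cells were measured beside them, and each of the 4 groups is 1 sample (n = 1) that was sequenced as 2 libraries.

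Expression was deposited as RPKM, the reads of a gene scaled by its exon length and by the mapped reads of the library. The depth, recovered from the steps between low values, was 14617583 to 17679831 mapped reads per library. Since every condition had 1 sample, the differences below have no check by replicates, and p-values are not used. A difference is set instead against how far the 2 libraries of each sample lay apart and against all genes with a mean of at least 1 RPKM in the samples compared. Over the 10 genes, the libraries of a sample differed by a median of 0.02 to 0.14 on the log2 scale. Lower in library 2 were 9 of the 10 in SU-DHL-5 with DMSO and 3 with JQ1. In Toledo these were 7 with DMSO and 2 with JQ1. The same count over all genes is not given here, so these counts show nothing particular to the 10 genes. Read intervals (95%, exact binomial) cover counting error only. All 6 listed B cell markers were found in both lines, with a summed level of 629 to 999 RPKM in the SU-DHL-5 libraries and 609 to 947 RPKM in the Toledo libraries. The summed level of 5 T cell markers was at most 1.24 RPKM, that of 5 monocyte and macrophage markers at most 1.90 RPKM and that of 4 dendritic cell markers at most 1.12 RPKM. Of these, 1 T cell marker and 2 dendritic cell markers were listed at 0 in all 8 libraries. The 3 plasma cell markers summed to at most 1.23 RPKM in SU-DHL-5 and to 44.6 to 60.1 RPKM in Toledo, nearly all of it *IRF4*.

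MHC class II molecules are pairs of an alpha and a beta chain that show peptides from internalized proteins to CD4+ T cells, and B cells carry them at all times. HLA-DR, HLA-DP and HLA-DQ are the classical pairs. The invariant chain, encoded by *CD74*, holds the groove closed during transport, and HLA-DM, made from *HLA-DMA* and *HLA-DMB*, exchanges the remnant of that chain for peptide. CIITA does not bind DNA itself. It is recruited to class II promoters by RFX, NF-Y and CREB proteins that sit on the conserved X and Y boxes, and it also acts on *CD74* and the HLA-DM genes. Loss of class II expression is a known route by which DLBCL cells become less visible to T cells.

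Promoter sequences are shown because the X and Y boxes are where the shared regulators bind. Any part of these boxes in the lower values with JQ1 was not tested. RefSeq windows on GRCh38.p14, from 250 bases before to 50 bases after the annotated start, were at hand for 8 of the 10 genes, those other than *HLA-DRA* and *CIITA*. They were searched on both strands for CNGATGA, the end of the X box core, chosen after the windows had been read, and for ATTGG, the Y box core that NF-Y recognizes. Stretches of 75 bases are given 5′ to 3′ on the strand of the gene, with whole matches on that strand in capitals. They are reference sequence and not the alleles of these lines.
HLA-DRB1: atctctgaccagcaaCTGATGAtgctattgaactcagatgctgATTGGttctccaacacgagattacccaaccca
HLA-DQB1: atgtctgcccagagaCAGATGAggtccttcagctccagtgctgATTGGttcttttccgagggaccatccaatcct
HLA-DMA: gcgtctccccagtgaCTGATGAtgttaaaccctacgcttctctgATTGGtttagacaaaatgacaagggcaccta
HLA-DMB: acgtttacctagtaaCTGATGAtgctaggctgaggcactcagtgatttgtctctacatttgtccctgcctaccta
HLA-DQA1: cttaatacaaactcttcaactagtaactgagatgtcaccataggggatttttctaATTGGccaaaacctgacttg
HLA-DPB1: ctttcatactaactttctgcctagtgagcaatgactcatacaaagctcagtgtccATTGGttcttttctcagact

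The stretches lie at chr6:32589863-32589937 for *HLA-DRB1*, chr6:32666714-32666788 for *HLA-DQB1*, chr6:32953146-32953220 for *HLA-DMA* and chr6:32941052-32941126 for *HLA-DMB*, all on the minus strand. Those of *HLA-DQA1* (chr6:32637283-32637357) and *HLA-DPB1* (chr6:33075836-33075910) are on the plus strand. On either strand, CNGATGA was found in 6 of the 8 genes and in 9.19% of all 35116 RefSeq windows. Since CNGATGA was chosen after the windows of these genes had been read, its count in them cannot show enrichment. The same holds for the joined motifs below. The 8 genes had 9 windows, and a gene was counted if any of its windows matched. ATTGG was found in 7 of the 8 genes and in 34.6% of windows, again on either strand. In *HLA-DRB1* and *HLA-DQB1* the motifs shown were 21 bases apart, and in *HLA-DMA* 22 bases. CNGATGA followed by ATTGG on the same strand within 40 bases was found in 103 windows (0.293%). Besides these 3 genes, those windows included the class II genes *HLA-DRB5*, *HLA-DQB2* and *HLA-DOB*. The *HLA-DMB* stretch has CNGATGA with no ATTGG after it. The *CD74* window holds each motif on the opposite strand only. Likewise *HLA-DPA1* counts for CNGATGA, and *HLA-DMB* for ATTGG, through a match on the opposite strand only.

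In untreated cells the invariant chain and the HLA-DR alpha chain were among the 100 most abundant mRNAs of both lines, and the regulator was far below them. *CD74* (chromosome 5, 150401637 to 150412980) ranked 58th by RPKM among the 12889 genes above 0 in the DMSO sample of SU-DHL-5 and 65th among 13607 in that of Toledo. *HLA-DRA* (chromosome 6, 32439842 to 32445046), the alpha chain shared by all HLA-DR molecules, ranked 94th and 87th. *CIITA* (chromosome 16, 10866228 to 10936274) ranked 6210th and 3641st. By RPKM, a level per length, the DMSO order in SU-DHL-5 was *CD74*, *HLA-DRA*, *HLA-DRB1*, *HLA-DPA1*, *HLA-DQA1*, *HLA-DMA*, *HLA-DQB1*, *HLA-DPB1*, *HLA-DMB* and *CIITA*. In this order only the libraries of the neighbours *HLA-DQA1* and *HLA-DMA* overlapped. In Toledo the order was *CD74*, *HLA-DRA*, *HLA-DPA1*, *HLA-DRB1*, *HLA-DMA*, *HLA-DQA1*, *HLA-DPB1*, *HLA-DQB1*, *HLA-DMB* and *CIITA*, with no overlap between neighbours.

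**Figure D1:**
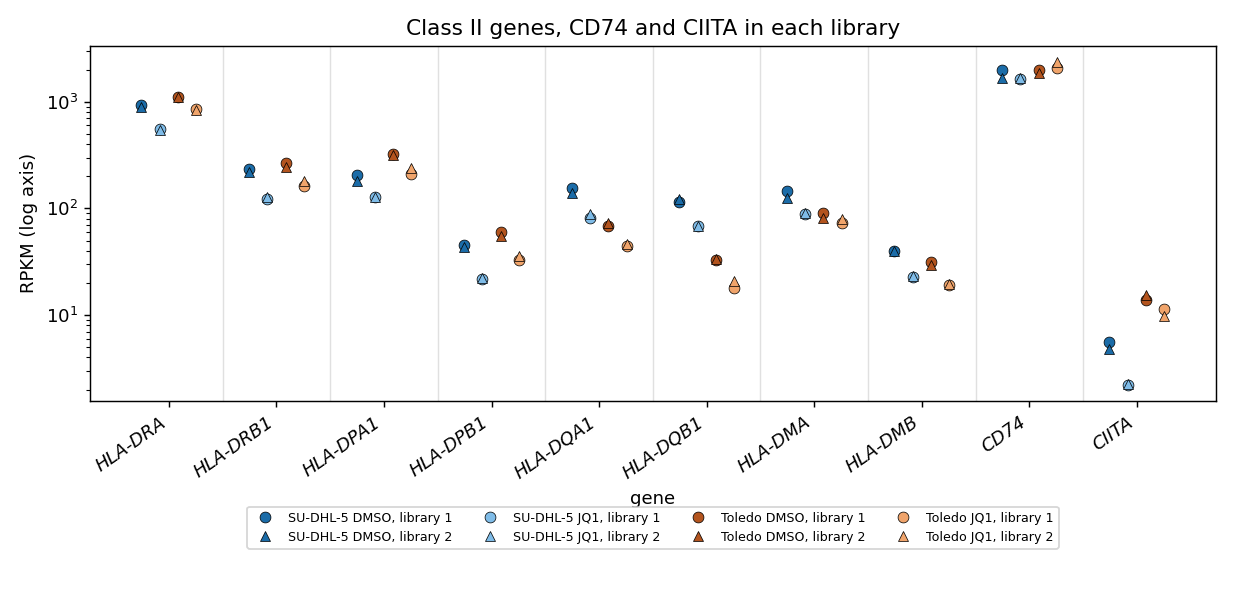
RPKM of the 10 genes (log axis) in each library, with circles for library 1 and triangles for library 2 of each sample. *CD74* and *HLA-DRA* lie highest and *CIITA* lowest in all 4 samples, and for every gene but *CD74* both JQ1 libraries of a line lie below both of its DMSO libraries.

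With JQ1, all 10 genes had a lower mean RPKM than with DMSO in SU-DHL-5 and 9 of 10 did in Toledo, the exception being *CD74*. The median log2 ratio of the 10 genes, log2((JQ1 + 0.1)/(DMSO + 0.1)), was −0.79 for SU-DHL-5 and −0.54 for Toledo, where the median of all genes was 0.02 and −0.06. These medians correspond to 0.576 and 0.686 of the DMSO level. The JQ1 libraries were both below the DMSO libraries for 9 of the 10 genes in SU-DHL-5, as they were for 38.0% of all 9094 genes tested there, and for 9 of 10 in Toledo, as for 42.9% of 9380 genes. The differences were moderate in size. A ratio below 0.5 was found for 2 of the 10 genes in SU-DHL-5, *CIITA* and *HLA-DPB1*, against 5.54% of all genes, and for 0 of 10 in Toledo, against 6.81%. A ratio below 0.67 was found for 9 and 5 of the 10 genes, against 12.2% and 16.1% of all genes. Some of these calls lay close to a cutoff. *HLA-DPB1* in SU-DHL-5 was at 0.496, *HLA-DMA* in SU-DHL-5 at 0.669 and *HLA-DRB1* in Toledo at 0.669. No member was above 2 in either line (background 1.68% and 1.7%) or above 1.5 (8.74% and 6.71%). The reverse order, both JQ1 libraries above both DMSO libraries, was found for 0 of 10 genes in SU-DHL-5 against 42.3% of all genes, and for 1 of 10 in Toledo against 29.7%.

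**Figure D2:**
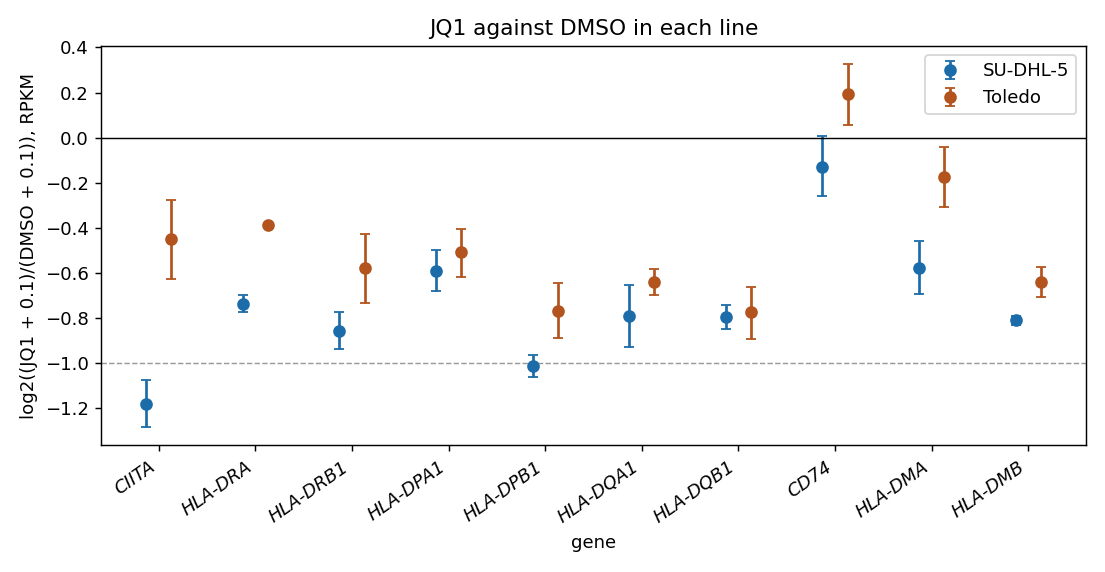
Log2 ratio of JQ1 to DMSO for each gene (y axis, RPKM with 0.1 added) in SU-DHL-5 and Toledo, where points are ratios of sample means, bars span the 4 pairings of a JQ1 with a DMSO library and the dashed line marks a ratio of 0.5. *CIITA* lies lowest in SU-DHL-5 at −1.18, and *CD74* lies highest in both lines at −0.13 and 0.19.

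*CIITA*, the regulator, had the lowest ratio of the group in SU-DHL-5. Its DMSO libraries had 5.56 and 4.81 RPKM and its JQ1 libraries 2.22 and 2.23 RPKM, or 1129 and 463 reads in all (log2 ratio −1.18, interval −1.37 to −1.06). In Toledo it had 13.9 and 15.3 RPKM with DMSO and 11.5 and 9.83 RPKM with JQ1 (log2 ratio −0.45, interval −0.53 to −0.37). The Toledo ratio was uneven between libraries, at −0.27 with library 1 of each sample alone and −0.63 with library 2. The libraries of DMSO and JQ1 did not overlap in either line, and the JQ1 level of *CIITA* in Toledo remained above its DMSO level in SU-DHL-5. The end of *CIITA* overlaps *DEXI* from position 10928891, and the sources used here do not state whether reads were counted by strand. Only the *CIITA* transcript that starts at 10866228 reaches that position. The others end at 10924862 to 10924983, and the ratios of their main group are given below. Whether reads of *DEXI* entered the gene value of *CIITA* was not tested. *DEXI* was higher with JQ1, with log2 ratios of 1.04 and 1.26.

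The transcript table splits *CIITA* into 10 transcripts with 3 groups of starts. *CIITA* is known to have several alternative promoters, each with its own first exon, and to be made from a particular one of them in B cells. The 5 transcripts that start at 10877198 to 10877208 held 90.0% to 99.2% of the summed transcript RPKM in every library. Their sum was 8.34 and 6.83 RPKM with DMSO and 3.18 and 3.02 RPKM with JQ1 in SU-DHL-5 (log2 ratio −1.26). In Toledo the sum was 19.2 and 21.7 RPKM with DMSO and 15.1 and 13.1 RPKM with JQ1 (log2 ratio −0.53). The single transcript that starts at 10866228 had at most 0.959 RPKM in any library, and the 4 that start at 10878571 together at most 0.797 RPKM. How the reads were divided within the main group was not stable between libraries of a sample. *CIITA*_2, for example, was given 5.31 RPKM in library 1 and 2.02 RPKM in library 2 of SU-DHL-5 with DMSO, so that transcripts are not compared singly.

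The HLA-DR chains were lower with JQ1 in both lines. *HLA-DRA* had 938 and 900.1 RPKM with DMSO and 555 and 548 RPKM with JQ1 in SU-DHL-5 (log2 ratio −0.74). Toledo had 1115 and 1101 RPKM with DMSO and 848 and 844 RPKM with JQ1 (log2 ratio −0.39). *HLA-DRB1* (chromosome 6, 32578769 to 32589836), a highly polymorphic beta chain, had 236 and 219 RPKM with DMSO against 123 and 128 RPKM with JQ1 in SU-DHL-5. In Toledo it had 268 and 243 RPKM against 161 and 180.3 RPKM. The log2 ratios of *HLA-DRB1* were −0.86 and −0.58, and no JQ1 library reached a DMSO library for either chain. Centred on genes of like length, the Toledo ratios were smaller in size, at −0.18 for *HLA-DRA* and −0.37 for *HLA-DRB1*. *HLA-DRB5*, a near-identical copy on the same chromosome whose reads may be shared with *HLA-DRB1*, had log2 ratios of −0.88 and −0.62. With the values of both copies summed, the log2 ratios were −0.87 and −0.59.

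Of the HLA-DP chains, the beta chain had the lower ratio in each line. *HLA-DPA1* (chromosome 6, 33064569 to 33080778) had 204 and 180.5 RPKM with DMSO and 128 and 127 RPKM with JQ1 in SU-DHL-5 (log2 ratio −0.59). Toledo had 322 and 315 RPKM with DMSO and 209.5 and 238 RPKM with JQ1 (log2 ratio −0.51). *HLA-DPB1* (chromosome 6, 33075926 to 33089696) had 45.3 and 43.2 RPKM with DMSO and 21.6 and 22.1 RPKM with JQ1 in SU-DHL-5 (log2 ratio −1.01). It had 60.4 and 55.6 RPKM with DMSO and 32.6 and 35.5 RPKM with JQ1 in Toledo (log2 ratio −0.77). The libraries of the treatments were apart for both chains. The level of *HLA-DPB1* in the gene table is set by a length of 4478 bases, while 90.2% of its transcript RPKM with DMSO in SU-DHL-5 was on a transcript of 1110 bases, which had 131 and 125 RPKM. Its gene value therefore understates the mRNA level against *HLA-DPA1*, while the same length divides the values of both treatments. The window shown above for *HLA-DPB1* lies before the start of the long transcript, at 33075926, and not before that of the transcript of 1110 bases, at 33080387.

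The HLA-DQ chains showed nearly equal ratios within SU-DHL-5, −0.79 for *HLA-DQA1* (chromosome 6, 32637392 to 32654685) and −0.80 for *HLA-DQB1* (chromosome 6, 32659464 to 32666689). *HLA-DQA1* had 156 and 139 RPKM with DMSO and 81.9 and 87.9 RPKM with JQ1 there, and in Toledo 69.1 and 72.6 RPKM with DMSO and 44.7 and 46.2 RPKM with JQ1 (log2 ratio −0.64). *HLA-DQB1* had 115 and 123 RPKM with DMSO and 68.9 and 68.3 RPKM with JQ1 in SU-DHL-5. In Toledo its values were 32.9 and 33.6 RPKM with DMSO and 18.03 and 20.7 RPKM with JQ1 (log2 ratio −0.77), which together with the −0.77 of *HLA-DPB1* was the lowest in that line. All DQ libraries with JQ1 were below those with DMSO of the same line.

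*CD74* was the member that stood apart. It had 1970.2 and 1669 RPKM with DMSO and 1649 and 1676 RPKM with JQ1 in SU-DHL-5, so that the second JQ1 library lay above the second DMSO library and the groups overlapped. The log2 ratio of the means was −0.13. In Toledo *CD74* had 1987 and 1881 RPKM with DMSO and 2063 and 2358 RPKM with JQ1 (log2 ratio 0.19), with both JQ1 libraries above both DMSO libraries. As a result the level of *CD74* relative to *HLA-DRA*, both in RPKM, was 1.98 with DMSO and 3.01 with JQ1 for SU-DHL-5, against 1.75 and 2.61 for Toledo. The libraries of this relative level did not overlap between treatments, with 2.10 and 1.85 against 2.97 and 3.06 for SU-DHL-5 and with 1.78 and 1.71 against 2.43 and 2.79 for Toledo.

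The HLA-DM chains were lower by unequal amounts. *HLA-DMB* (chromosome 6, 32934629 to 32941070) had 40.2 RPKM in both DMSO libraries and 22.6 and 23.2 RPKM with JQ1 in SU-DHL-5 (log2 ratio −0.81). In Toledo it had 31.5 and 29.2 RPKM with DMSO and 19.3 and 19.6 RPKM with JQ1 (log2 ratio −0.64). *HLA-DMA* (chromosome 6, 32948614 to 32953122) had 145 and 125 RPKM with DMSO and 89.5 and 91.1 RPKM with JQ1 in SU-DHL-5 (log2 ratio −0.58). In Toledo *HLA-DMA* had 90.8 and 82.0 RPKM with DMSO against 73.4 and 79.6 RPKM with JQ1. The libraries did not overlap, but the log2 ratio there was only −0.17 and became 0.03 when the ratios were centred on genes of like length, so its direction in Toledo depended on that choice. With library 1 or library 2 of each sample alone it was −0.31 or −0.04.

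**Figure D3:**
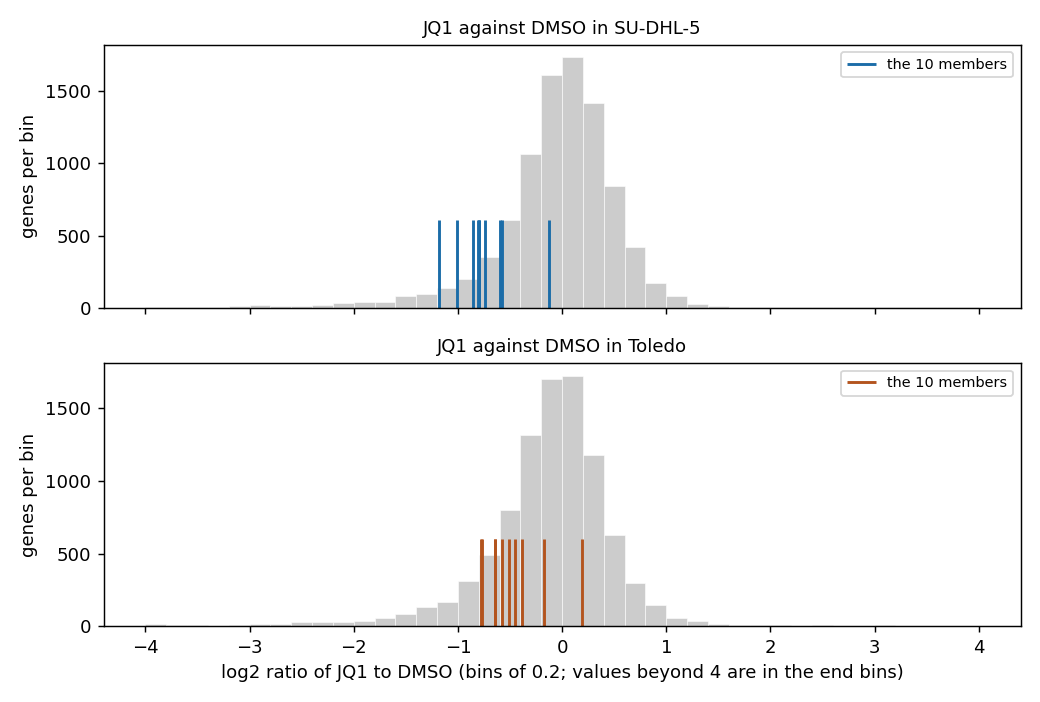
Distribution of the log2 ratio of JQ1 to DMSO (x axis) over all genes of at least 1 RPKM in SU-DHL-5 (top) and Toledo (bottom), as genes per bin (grey bars), with a vertical line for each of the 10 genes. The 9 genes other than *CD74* lie between −1.18 and −0.58 in SU-DHL-5 and between −0.77 and −0.17 in Toledo, and *CD74* lies to their right in both panels, at −0.13 and 0.19.

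Placed among all genes, *CIITA* had 4.22% of genes with a lower ratio in SU-DHL-5 and 21.6% in Toledo. For the 6 classical HLA chains this share was 5.45% to 11.8% in SU-DHL-5 and 10.7% to 24.4% in Toledo, and for *CD74* it was 35.6% and 73.9%. For *HLA-DMA* the share was 12.2% and 40%, and for *HLA-DMB* 7.53% and 14%. In Toledo *HLA-DMA* was thus near the middle of the distribution and *CD74* on its upper side. For each of the 10 genes the log2 ratio was higher in Toledo than in SU-DHL-5, as it was for 35.8% of the 8495 genes that passed the filter in both lines. For 7 of them, those other than *HLA-DPA1*, *HLA-DQA1* and *HLA-DQB1*, the 4 library pairings of the lines did not overlap, against 41.9% of these genes in either direction and 12.3% with Toledo higher. The widest gap was that of *CIITA*, 0.73 on the log2 scale. The gap in reads was 0.77 (95% interval 0.59 to 0.94, from the counting error of the 4 samples alone). With 1 sample per group, a difference between the lines was not tested.

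Between the untreated lines the class II genes did not differ in one direction, and *CD74* and *HLA-DRA* had the highest levels in both. Toledo had a ratio to SU-DHL-5 below 0.5 for 2 of the 10 genes, *HLA-DQA1* and *HLA-DQB1*, against 13.6% of the 9630 genes tested, and above 2 for 1, *CIITA*, against 14.9%. At cutoffs of 0.67 and 1.5 the counts were 3 (23.9% of all genes) and 2 (25.5%). Toledo libraries were all below for 4 genes, against 42.3% of all genes, and all above for 5, against 42.2%. The counts past the cutoffs are near those shares. *CIITA* was 2.78-fold higher in Toledo, with a log2 ratio of 1.48 over 3301 and 1129 reads. *HLA-DQB1* had a log2 ratio of −1.84 and *HLA-DQA1* of −1.05, both with all Toledo libraries below all SU-DHL-5 libraries. *HLA-DPA1*, *HLA-DPB1*, *HLA-DRA* and *HLA-DRB1* were higher in Toledo with log2 ratios of 0.73, 0.39, 0.27 and 0.17. *HLA-DMA* and *HLA-DMB* were lower with −0.64 and −0.40. The *CD74* libraries of the lines overlapped (log2 ratio of 0.09). The order of the lines by *CIITA* was therefore not the order of the lines by HLA-DQ or HLA-DM. In the JQ1 samples the difference in *CIITA* was wider, with a log2 ratio of Toledo to SU-DHL-5 of 2.21.

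**Figure D4:**
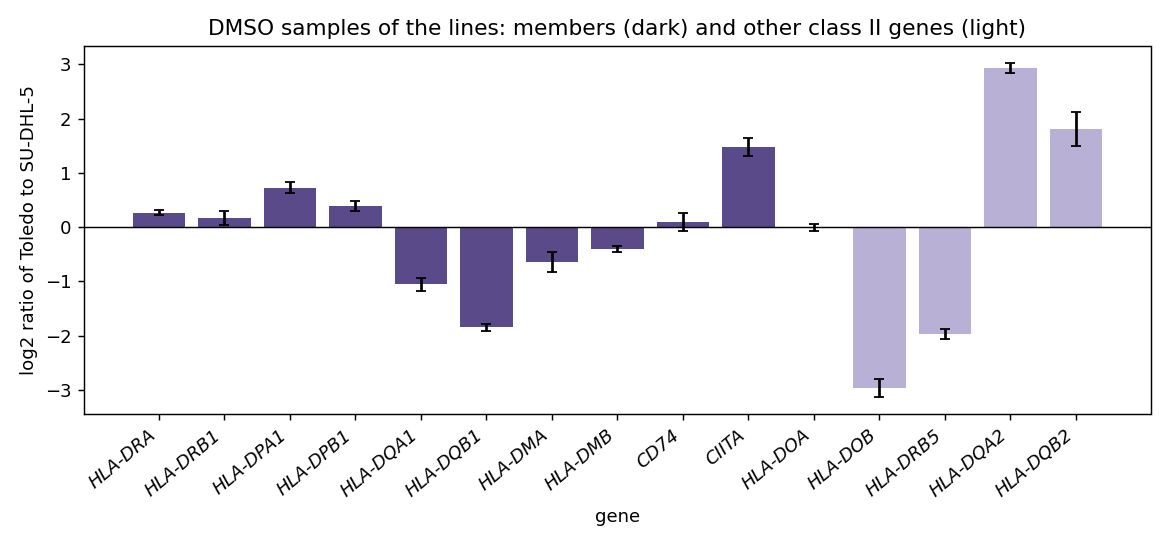
Log2 ratio of the DMSO sample of Toledo to that of SU-DHL-5 (y axis) for the 10 genes (dark bars) and 5 other class II genes (light bars), where error bars span the 4 pairings of libraries. *CIITA*, *HLA-DQA2* and *HLA-DQB2* lie above 1, and *HLA-DQA1*, *HLA-DQB1*, *HLA-DOB* and *HLA-DRB5* lie below −1.

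HLA genes differ in sequence between people and between neighbouring copies, and reads of an allele far from the reference can be lost or assigned to a copy. The files name no alleles, so a difference in expression between the lines and a difference in alignment cannot be told apart for the DR, DQ and DP genes. The values of the copies show how far this could matter. *HLA-DRB5* had 262 and 233 RPKM in SU-DHL-5 with DMSO and 63.1 and 62.7 RPKM in Toledo. Summed with it, *HLA-DRB1* had a log2 ratio of Toledo to SU-DHL-5 of −0.58 in place of 0.17. *HLA-DQA2* had 5.42 and 4.86 RPKM for SU-DHL-5 and 40.4 and 39.6 RPKM for Toledo, and the ratio of *HLA-DQA1* summed with it was −0.46 in place of −1.05. *HLA-DQB1* summed with *HLA-DQB2* stayed at −1.67. The transcript table lists *HLA-DQB1* as 2 transcripts with the same ends, of 1640 and 1664 bases. The longer of them had 48.2 and 60.3 RPKM in SU-DHL-5 with DMSO and 26.0 and 24.8 RPKM with JQ1, and it was listed at 0 in all 4 Toledo libraries.

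Of 10 other class II genes, 8 were in the gene table, those other than *HLA-DRB3* and *HLA-DRB4*. Of these 8, 3 were listed at 0 throughout, *HLA-DRB6*, *HLA-DPA2* and *HLA-DPB2*. The other 5 had JQ1 libraries below DMSO libraries in both lines, 1 of them, *HLA-DQB2*, without passing the filter in SU-DHL-5, where it had 53 reads with DMSO and 15 with JQ1. Ratios below 0.5 were found for *HLA-DOB* in both lines and for *HLA-DQA2* (log2 ratio −1.02, 193 and 89 reads) in SU-DHL-5. *HLA-DOB*, the beta chain of HLA-DO, which restrains HLA-DM in B cells, had the lowest ratio of these in each line. It had 29.6 and 28.0 RPKM with DMSO and 5.65 and 6.33 RPKM with JQ1 in SU-DHL-5, with 1290 reads against 255 (log2 ratio −2.25). Toledo had 3.30 and 3.95 RPKM against 0.583 and 0.226 RPKM, with 168 reads against 18 (log2 ratio −2.88). *HLA-DOA*, the partner chain, had log2 ratios of −0.50 and −0.20, so the HLA-DO chains differed more from each other than the HLA-DM chains did.

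The DNA-binding factors of the class II promoter did not share a direction. Of 7 genes, 0 were below 0.5 in either line, against 5.54% and 6.81% of all genes. A ratio above 2 was found for 1, *NFYA*, in Toledo, against 1.7%. *RFX5*, the subunit of RFX that defines the complex, was lower, at 33.7 and 32.6 RPKM against 52.3 and 52.1 RPKM in SU-DHL-5. The Toledo values of *RFX5* were 30.2 and 29.2 RPKM with JQ1 and 41.9 and 47.8 RPKM with DMSO (log2 ratios of −0.65 and −0.59). *RFXANK* had log2 ratios of −0.15 and −0.84 and *RFXAP* of −0.08 and −0.43. *NFYA* (0.90 and 1.05) and *CREB1* (0.65 and 0.50) were higher, with JQ1 libraries above DMSO libraries in both lines.

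Of 10 genes known to act on *CIITA*, 8 passed the filter for SU-DHL-5 and 9 for Toledo. Among those, *SPI1* was the 1 below 0.5 in SU-DHL-5, against 5.54% of all genes. In Toledo 2 were below 0.5, *SPI1* and *IRF8*, against 6.81%. *SPI1*, which encodes the transcription factor PU.1, had 89.6 and 82.1 RPKM with DMSO and 34.3 and 35.1 RPKM with JQ1 in SU-DHL-5 (log2 ratio −1.31). In Toledo it had 59.3 and 58.6 RPKM against 10.8 and 9.73 RPKM (log2 ratio −2.51). *IRF8*, an interferon regulatory factor of germinal centre B cells, was at 47.4 and 45.8 RPKM in SU-DHL-5 with DMSO and 48.8 and 50.5 RPKM with JQ1. In Toledo it was at 3.76 and 4.21 RPKM with DMSO and 0.388 and 0.368 RPKM with JQ1, with 363 reads against 33 (log2 ratio −3.09). *IRF4*, its relative of activated B cells and plasma cells, had 44.2 and 53.3 RPKM in Toledo with DMSO and 1 read in each DMSO library of SU-DHL-5. The medians of the genes that passed the filter were −0.03 and 0.01, close to those of all genes.

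Endosomal processing genes were mixed. Of 10 listed genes found, 7 passed the filter for SU-DHL-5 and 8 for Toledo. JQ1 libraries were below DMSO libraries for 6 and 4 of them, against 38.0% and 42.9% of all genes. *CTSS*, the protease that cleaves the invariant chain in B cells, was below 0.5 in both lines. It had 32.9 and 33.9 RPKM against 10.9 and 11.1 RPKM in SU-DHL-5 and 18.1 and 21.2 RPKM against 5.09 and 5.24 RPKM in Toledo (log2 ratios of −1.59 and −1.91). *CTSH* had log2 ratios of −0.66 and −1.18, the latter also below 0.5, and *CTSD* of −0.80 and −0.95. *SPPL2A*, the intramembrane protease that removes the last fragment of the invariant chain, was higher in both lines (0.60 and 0.71). *IFI30*, a thiol reductase of the loading compartment, had opposite directions, with log2 ratios of −0.70 and 0.77, and a DMSO level of 221 and 184 RPKM for SU-DHL-5 but 2.42 and 2.16 RPKM for Toledo. Among genes of class II turnover and partners of CD74, 3 of 5 found passed the filter for SU-DHL-5 and 4 for Toledo. Of these, *CD83*, which keeps class II molecules at the surface, was the 1 below 0.5 in SU-DHL-5, against 5.54% of all genes. In Toledo 0 were below 0.5, against 6.81%. The log2 ratios of *CD83* were −1.05 and −0.22. *CTSL* was listed at 0 in all libraries.

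**Figure D5:**
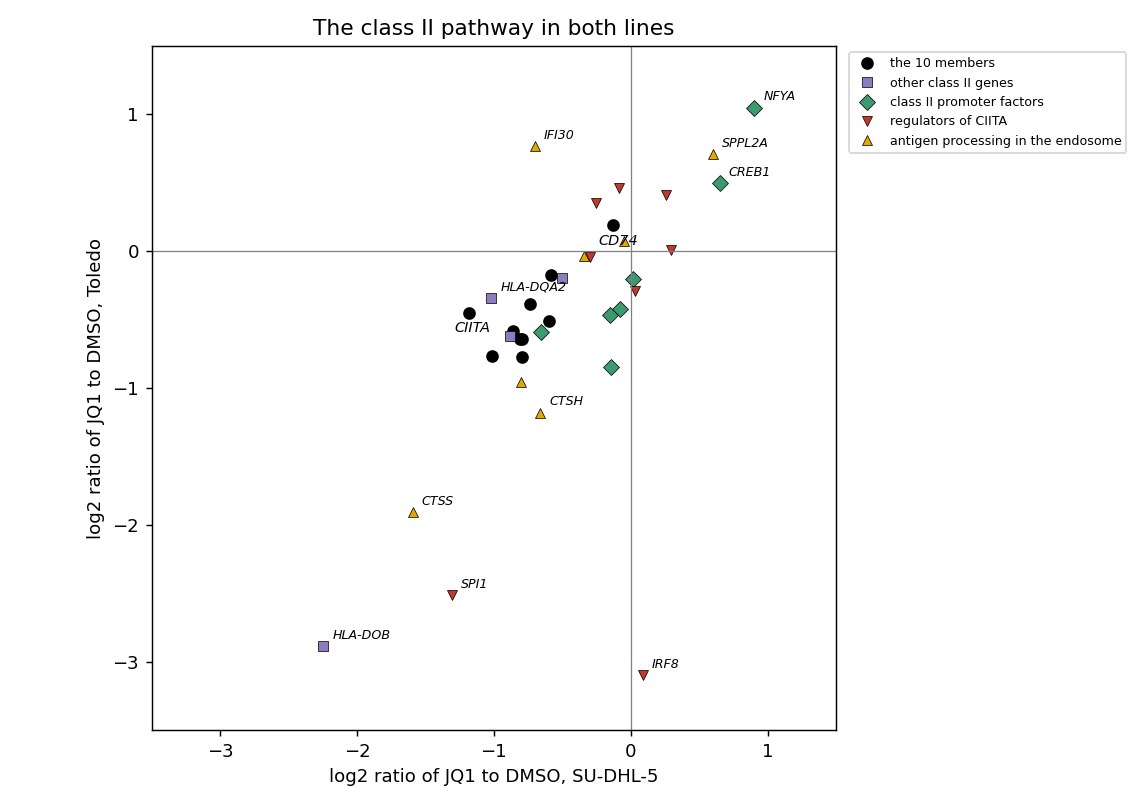
Log2 ratio of JQ1 to DMSO in SU-DHL-5 (x axis) and Toledo (y axis) for the 10 genes (black circles) and for genes of 4 lists that passed the filter in both lines. Most members lie in the lower left, *HLA-DOB*, *CTSS* and *SPI1* lie below −1 on both axes, and *NFYA*, *CREB1* and *SPPL2A* lie above 0 on both.

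Genes beside the members had both directions. Of 12 neighbours found, 9 passed the filter. In SU-DHL-5, 7 had JQ1 libraries below DMSO libraries and 2 above, against 38.0% and 42.3% of all genes. In Toledo, 3 were below and 4 above, against 42.9% and 29.7%. *BRD2*, a target of JQ1 that lies between *HLA-DMA* and *HLA-DOA* (chromosome 6, 32968660 to 32981505), was higher with JQ1, at 52.6 and 50.9 RPKM against 32.0 and 30.6 RPKM in SU-DHL-5. Toledo had 41.1 and 39.1 RPKM with JQ1 and 29.5 and 33.5 RPKM with DMSO. The immunoproteasome gene *PSMB8*, between the HLA-DQ and HLA-DM genes, was lower with log2 ratios of −1.41 and −0.88. *SOCS1*, near *CIITA*, had −0.61 in SU-DHL-5 and 0.63 in Toledo. Class I genes are given for comparison. *HLA-B* and *HLA-C* were lower in both lines (−0.51 and −0.31, −0.28 and −0.35), and *B2M*, the light chain of class I, was higher (0.48 and 0.61).

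Of the 6 B cell markers, 5 had JQ1 libraries below DMSO libraries in each line. The exceptions, whose libraries overlapped, were *CD79B* in SU-DHL-5 (log2 ratio 0.01) and *PAX5* in Toledo (0.27). JQ1 libraries lay below DMSO libraries for 38.0% of all genes in SU-DHL-5 and for 42.9% in Toledo. *MS4A1*, which encodes the surface protein CD20, and *CD22*, an inhibitory co-receptor, were below 0.5 in both lines, with log2 ratios of −1.99 and −1.47 and of −1.47 and −1.11. In bulk samples, fewer cells that express a gene and less RNA per cell cannot be told apart, and the part of either in the class II values was not tested.

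The genes whose pattern over the 4 samples was most like that of the members were taken by Euclidean distance of centred log2 values, out of 9521 genes. For *CIITA* they were *UBE2C*, *TMLHE*, *RARA*, *DVL1* and *RAB7L1*, at distances of 0.27 to 0.33. For the mean of the 10 members they were *C12orf73*, *TRAF2*, *SLC25A26*, *PPT2* and *OVCA2*, at distances of 0.03 to 0.11. With 4 points per gene, such likeness is a description of these samples only.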

How the data were processed

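RNA of 4 samples, 2 lines with DMSO or JQ1, was read by paired sequencing of stranded mRNA libraries. The labels give 6 h of treatment, and a figure legend of the study gives another time. RPKM values, computed by the authors from trimmed reads, were deposited for genes and for transcripts, with 2 libraries per sample. The submitters' processing notes name CASAVA 2.0 and GRCh38 (hg38), and the aligner, counter and annotation are not given in the sources used here. Starts in the files count from 0, and 1 was added.

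The libraries of a sample were averaged (n = 1 per group), so no test was run. Mapped reads per library were recovered from single-exon genes. The smallest length of 100 to 40000 bases that made all values of a gene whole reads was taken, which succeeded for 14942 of 14944 genes with a value. The recovery was tested on simulated data. Ratios are log2 with 0.1 RPKM added, over genes with a mean of at least 1 RPKM in the libraries compared.

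Members and lists were chosen with earlier results of these data known. Named genes are the members, listed genes past the cutoff or as examples, and the 5 genes nearest in pattern. Genes were matched by symbol. The tools were scipy 1.17.1, pandas 2.3.3, matplotlib 3.10.9 and numpy 2.4.6 in Python 3.11.15. The result of 1 listed gene is not reported here.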

Additional observations from a re-analysis of the deposited data

Results flagged for a closer look

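*CD74* had opposite directions in the lines, the log2 ratio of JQ1 to DMSO being −0.13 for SU-DHL-5 but 0.19 for Toledo. The difference was not tested, since each group had 1 sample, and in SU-DHL-5 the direction rested on the first DMSO library. With the second library of each sample alone, the log2 ratio there was 0.01.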

How the results depend on the processing

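No paired analysis was possible because there was 1 sample per group and nothing was tested. The alternatives varied the pseudocount, the filter, the scaling, the table, the library, the length correction, the treatment of near-identical copies and the cutoff. The count of members below 0.5 in SU-DHL-5 went from 2 to 0 when 1 RPKM was added before the log, to 1 with a mean of at least 5 RPKM (9 members), to 1 in library 2 alone and to 9 at a cutoff of 0.67. In Toledo this count went from 0 to 5 at 0.67. Between the untreated lines it went from 2 to 1 in library 2 alone, centred on genes of like length and with copies summed, and the count above 2 went from 1 to 2 at a cutoff of 1.5.

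The median log2 ratio in SU-DHL-5, −0.79, was −0.75 in library 2 alone and −0.74 centred on length. In Toledo, −0.54 became −0.41 centred on length. Between the untreated lines the median of 0.13 was 0.18 centred on length and took the other sign, −0.16, with copies summed, where *HLA-DRB1*, *HLA-DQA1* and *HLA-DQB1* hold the reads of a second gene by construction. The cause of the other moves was not tested. The remaining 82 of 96 summary values stayed within 1.5 times the count or within the SD of the libraries taken singly. Of 299 values of single members, 233 lay within the counting interval. Depth limits *HLA-DQB2* in SU-DHL-5 and *HLA-DOB* in Toledo, with 15 and 18 reads in their JQ1 samples.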
